A study of Rattus norvegicus with 9 samples.

Results

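The genes described here are those of the contractile apparatus and the Z disc that carry a symbol in the deposited tables of a rat heart RNA sequencing study. They were chosen by name, as genes whose symbol begins like that of a myosin chain, troponin, tropomyosin, myomesin, myotilin, myozenin, alpha-actinin, PDLIM, CSRP, FHL, leiomodin, tropomodulin, CapZ or vinculin gene. In all 34 names matched, 5 of them (Myl7, Myl9, Tnni1, Tnnt1 and Myom2) were left out by the rule, and the other 29 were followed among 24653 loci of at least 200 nt, 16583 of which carry a symbol. The names do not make a full parts list of the cardiac sarcomere. Major cardiac genes (Myh6, Myh7, Myl2, Tnnt2, Tnni3, Ldb3 and Csrp3 among them) were not analysed here, and many members are the skeletal muscle or widely expressed relatives of those genes. A few members only share the letters: Csrp2bp encodes a histone acetyltransferase, and Mylip a ubiquitin ligase.

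RNA was compared in 9 libraries from Sprague-Dawley rats, 3 in each group. Fetal libraries came from ventricle at embryonic day 18, from litters numbered 1 to 3. TAC libraries came from the left ventricle of adult rats after transverse aortic constriction, which loads the heart with pressure, and sham libraries from the left ventricle of adults given the same operation without constriction. No gene was deleted or added in any group, the sources used here do not give the time from surgery to sampling, nor say whether each adult library is 1 animal. Trizol was used for the fetal RNA and a column kit for the adult RNA, so stage, region of ventricle and isolation cannot be told apart, and p-values in the adult groups measure a spread between libraries that may be technical. Fragment numbers implied by the confidence bounds of the deposited values were 17.5 to 25.7 (in units of 1e6) in fetal, 6.37 to 11.7 in TAC and 11.9 to 21.6 in sham libraries. Levels below are rescaled FPKM, derived from fragments per kilobase of transcript per 1e6 fragments. They were corrected for a library-specific constant and scaled to a mean library total of 1e6. Comparison between genes and libraries holds where the transcripts listed have like lengths. Each library was assembled separately, and for some members those lengths differed between libraries. Changes are differences in log2(rescaled FPKM + 1) from limma with the standard error (SE), adjusted by Benjamini-Hochberg over all 14118 loci tested, and a change was called at an adjusted p below 0.05. The +1 makes the change of weakly expressed genes smaller than the ratio of their levels.

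In the sarcomere, myosin thick filaments slide along actin thin filaments. Thin filaments are anchored with their barbed ends in the Z disc, where CapZ caps them and alpha-actinin, myotilin, myozenins and PDLIM proteins hold them together, and end freely at the pointed end, which tropomodulins and leiomodins control. Thick filaments are joined at the M band by the myomesins, and vinculin connects the outermost filaments to adhesion sites in the membrane. Between fetal and adult life cardiomyocytes exchange several isoforms of these proteins and stop dividing, and under pressure overload a part of the fetal programme can return.

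The 250 bases upstream of the RefSeq start (build GRCr8; the deposited loci are in rn4) are shown for 5 members that changed, in either direction, between fetal and adult ventricle. Tnni3k (chr2:246664950-246665199, minus strand), Myom3 (chr5:153276056-153276305, plus strand) and Myoz1 (chr15:3693363-3693612, plus strand) were lower in fetal libraries, and hold a match to the consensus of MEF2, a family of muscle transcription factors. Csrp2 (chr7:48235165-48235414, plus strand) and Vcl (chr15:3404801-3405050, minus strand) were higher. Capitals mark MEF2 matches in Tnni3k, Myom3 and Myoz1, and the letters CATTCC (the MCAT element, bound by TEAD factors) or their complement GGAATG in Tnni3k and Vcl.
Tnni3k: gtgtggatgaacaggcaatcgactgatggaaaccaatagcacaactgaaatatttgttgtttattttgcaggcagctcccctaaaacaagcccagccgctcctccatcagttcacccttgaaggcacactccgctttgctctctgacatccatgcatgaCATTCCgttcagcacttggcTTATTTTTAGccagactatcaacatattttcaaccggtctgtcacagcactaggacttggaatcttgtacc
Myom3: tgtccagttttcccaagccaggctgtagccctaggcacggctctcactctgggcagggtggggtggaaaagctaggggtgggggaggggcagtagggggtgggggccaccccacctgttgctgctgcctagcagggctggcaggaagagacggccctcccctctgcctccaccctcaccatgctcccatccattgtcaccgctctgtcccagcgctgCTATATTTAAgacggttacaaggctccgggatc
Myoz1: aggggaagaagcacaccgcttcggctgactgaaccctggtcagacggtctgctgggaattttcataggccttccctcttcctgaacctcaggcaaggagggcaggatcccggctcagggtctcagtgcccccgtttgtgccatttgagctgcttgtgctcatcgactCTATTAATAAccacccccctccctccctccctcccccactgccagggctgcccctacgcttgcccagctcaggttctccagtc
Csrp2: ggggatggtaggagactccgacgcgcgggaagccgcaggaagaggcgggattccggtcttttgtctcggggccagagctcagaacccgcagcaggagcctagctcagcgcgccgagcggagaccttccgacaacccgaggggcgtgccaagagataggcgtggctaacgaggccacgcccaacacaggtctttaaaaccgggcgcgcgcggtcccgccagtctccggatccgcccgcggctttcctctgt
Vcl: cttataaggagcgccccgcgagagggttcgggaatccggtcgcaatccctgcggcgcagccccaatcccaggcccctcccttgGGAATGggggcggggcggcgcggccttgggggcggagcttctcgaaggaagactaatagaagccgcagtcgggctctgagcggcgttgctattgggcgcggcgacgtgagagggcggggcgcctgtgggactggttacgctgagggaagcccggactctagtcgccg

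RefSeq windows were matched by symbol or older symbol for 17 of the 22 tested members; Myl1_v2, Myot, Pdlim2, Pdlim3 and Tpm3-rs7 had none. Both strands were searched in windows of the same length for all 33469 promoters. MEF2 matches stood in 3 of the 17 (Myom3, Myoz1 and Tnni3k) and in 2.96% of all promoters. Their distances before the start were 33 bases in Myom3, 83 in Myoz1 and 71 in Tnni3k. The lower members shown above are thus those with a MEF2 match. Lmod3, Fhl3 and Mylip, lower in fetal libraries in both comparisons, had no match, nor had Tmod2 and Pdlim1, lower in a single comparison. Whether the Myom3 window precedes the start of the transcript assembled in adult libraries, described below, was not tested. CATTCC stood in 2 of the 17 (Tnni3k and Vcl) and in 12.1% of all, and TATAAA in 2 (Mylip and Tnni2) and in 12.9% of all. Neither AGATAA (10.3% of all promoters) nor a CArG box (1.5%) was found in these windows. A match is a description of the letters and not evidence of binding.

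Between fetal ventricle and sham left ventricle 15 of the 22 tested members changed, 6 higher and 9 lower in fetal. Over all loci tested 45.7% were called in that comparison (22.5% higher, 23.2% lower). Between fetal and TAC 14 changed, 5 higher and 9 lower, where 45.8% of all loci were called (22.8% higher, 23% lower). Csrp2, Capza1, Pdlim3, Vcl and Mylpf were higher in fetal libraries in both comparisons, and Lmod3, Tnni3k, Myom3, Myot, Myoz1, Pdlim2, Fhl3 and Mylip were lower in both. Csrp1 (higher) and Tmod2 (lower) were called against sham, and Pdlim1 (lower) against TAC. Both comparisons use the same fetal libraries, so they are not independent. Mylpf, Myom3 and Myot are counted here although the filter on level favoured a difference between groups for them, as described below. With libraries scaled to equal totals 6 members were higher and 7 lower in fetal than in sham (3327 and 2530 of all loci). Against TAC 7 were higher and 7 lower (3646 and 2309). In the main fit 3274 of all loci were lower in fetal than in sham, and 3242 lower than in TAC. Lower calls thus became fewer among the members and over all loci alike. The median log2 change of the tested members was -0.12 for fetal minus sham and 0.01 for fetal minus TAC, beside 0.04 and 0.03 over all loci. In these bulk tissues fewer cells of a type and less RNA per cell cannot be told apart.

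**Figure D1:**
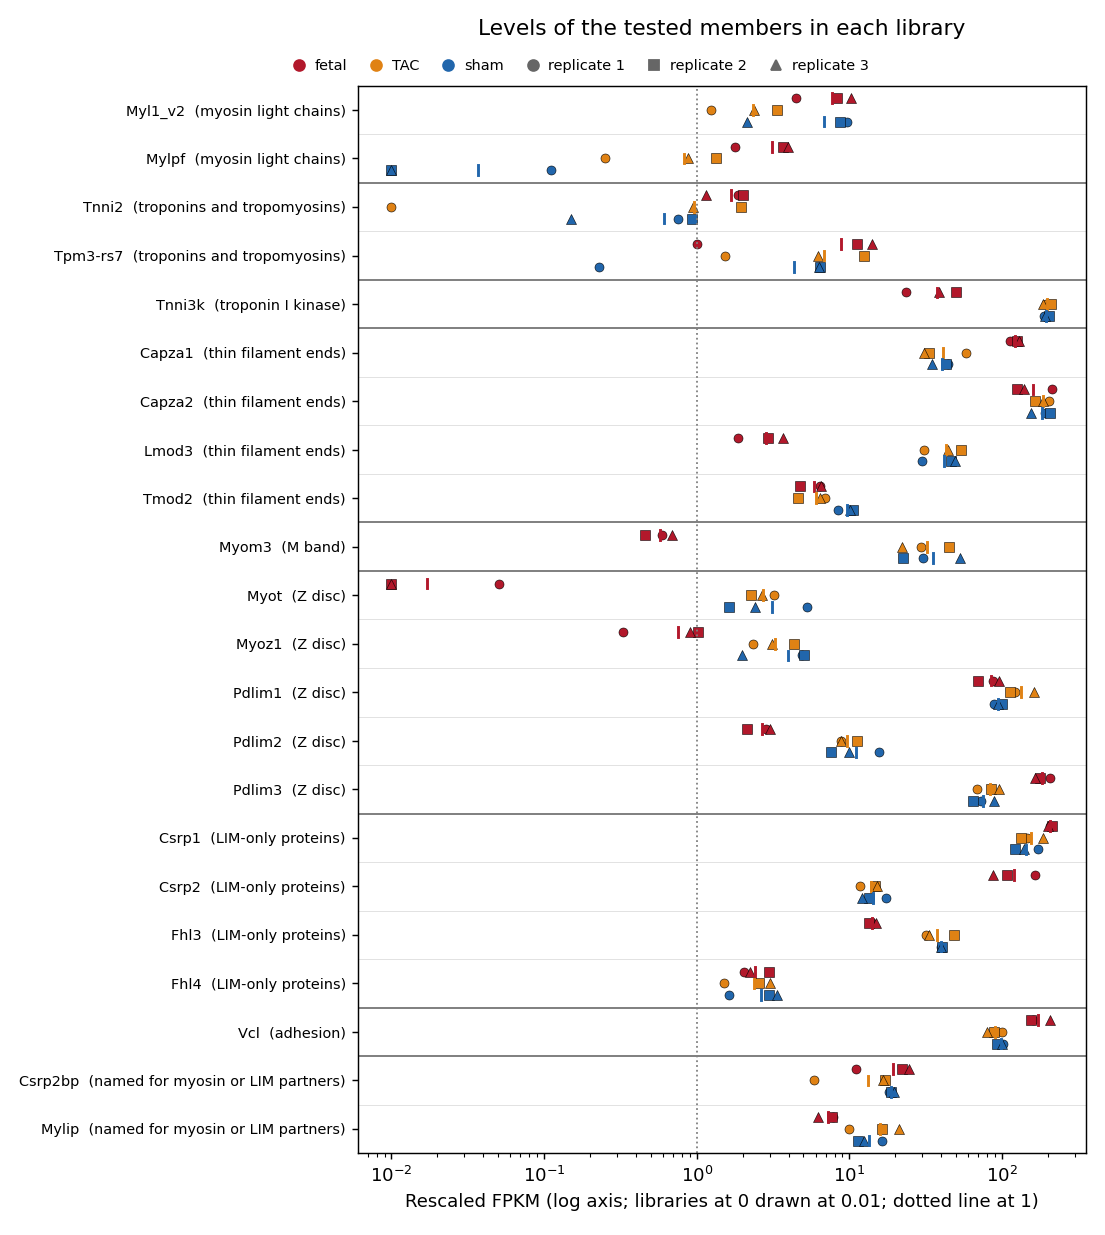
Rescaled FPKM (log axis, libraries at 0 at the left edge) of the 22 tested members in the fetal (red), TAC (orange) and sham (blue) libraries, with the replicate number as symbol and the group mean as a vertical line, grouped by role. Fetal libraries lie apart from both adult groups for Csrp2, Lmod3, Myom3 and Tnni3k, and TAC and sham libraries overlap for all but 4 members.

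The other 7 members, Actn3, Capza3, Fhl5, Myh13, Myh15, Mylc2pl and Tnnc2, did not reach a level of 1 in 3 libraries and were not tested. Capza3, the testis form of the CapZ alpha subunit, and Mylc2pl were listed at 0 in all libraries. Among the myosin heavy chains Myh13, the extraocular muscle form, stayed between 0.0161 (TAC 1) and 1.06 (sham 2), and Myh15 was above 0 only in sham 2 (0.0601). Actn3, the fast-fibre alpha-actinin, reached at most 0.144 (TAC 3) and Fhl5 at most 0.404 (sham 2). Tnnc2, the fast skeletal troponin C, was at 0, 1.42 and 0.529 in fetal, at 0 in every TAC library and at 0.273, 0 and 0.342 in sham. Filtering by level lets a gene in through 1 group alone. Mylpf and Tnni2 passed through their fetal libraries and a TAC library, and Myot and Myom3 through their adult libraries alone, so a difference between groups was built into their entry.

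Of the myosin light chains, Mylpf (rn4 chromosome 1, 186471805 to 186474559), the regulatory light chain of fast skeletal muscle, stood at 1.77, 3.67 and 3.95 in fetal libraries, 0.250, 1.34 and 0.872 in TAC and 0.11, 0 and 0 in sham. All 3 fetal libraries were above all adult ones, at levels well below those of Pdlim1 and Pdlim3. The change was 1.95 (SE 0.32, limma adjusted p = 0.0014) for fetal minus sham and 1.18 (SE 0.32, limma adjusted p = 0.016) for fetal minus TAC. Sham values rested on 1, 0 and 0 implied fragments, TAC values on 1, 4 and 5. Without fetal replicate 2 (adjusted p = 0.0712) or 3 (0.0794) the call against TAC was lost. Myl1_v2, named for the fast essential light chain gene, was at 4.48, 8.35 and 10.2 in fetal, 1.24, 3.35 and 2.39 in TAC and 9.66, 8.71 and 2.14 in sham. Its fetal libraries lay above the TAC ones but mixed with sham, and no comparison passed the threshold (limma adjusted p = 0.0554 for fetal minus TAC). Reads of the light chain genes may be shared with close paralogs.

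Among the troponins and tropomyosins 2 members were tested, and 0 changed in any comparison in limma, by the adjusted p or at an unadjusted p below 0.05. Tnni2, the fast skeletal inhibitory subunit, was at 1.85, 2.0 and 1.14 in fetal, 0, 1.94 and 0.949 in TAC and 0.754, 0.926 and 0.149 in sham, a difference of 0.75 for fetal minus sham with a 95% interval from -0.19 to 1.68. Tpm3-rs7, a locus named as related to tropomyosin 3 (rn4 chromosome X, 99548633 to 99549357), was low in replicate 1 of every group. It stood at 1.01, 11.2 and 14.0 in fetal, 1.54, 12.5 and 6.27 in TAC and 0.228, 6.42 and 6.29 in sham. Its reads may be shared with other tropomyosin genes.

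Tnni3k encodes a cardiac kinase that binds troponin I, and its adult libraries were close together. Fetal libraries held 23.3, 49.8 and 38.8 (mean 37.3 ± 13.3, SD, n = 3), TAC libraries 193, 209 and 186 (196 ± 11.5) and sham libraries 189, 203 and 190.3 (194 ± 7.92). The fetal level was thus 5.21-fold below sham and 5.26-fold below TAC, with no overlap. The change was -2.41 (SE 0.24, limma adjusted p = 9.35e-05) against sham and -2.43 (SE 0.24, limma adjusted p = 9.11e-05) against TAC. Its locus spans rn4 chromosome 2 from 252627444 to 252824417, and its promoter is the one above with both a MEF2 match and CATTCC. Both calls held under all alternatives tried.

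At the ends of the thin filaments the members went in opposite directions. Lmod3, a leiomodin that starts and lengthens actin filaments in striated muscle, was at 1.85, 2.92 and 3.70 in fetal, 31.0, 54.2 and 44.4 in TAC and 29.7, 46.5 and 49.3 in sham libraries. Every fetal library was far below every adult one. The mean was 14.8-fold lower in fetal than in sham (log2 change -3.48, SE 0.29, limma adjusted p = 3.45e-05) and 15.3-fold lower than in TAC (-3.52, SE 0.29, limma adjusted p = 3.44e-05). Capza1, an alpha subunit of the barbed-end cap CapZ, was at 112, 125 and 129 in fetal, 58.1, 33.4 and 30.7 in TAC and 44.4, 42.6 and 34.8 in sham. Here the fetal libraries were the high ones, by 3.01-fold over sham (1.57, SE 0.23, limma adjusted p = 0.000812) and 3.0-fold over TAC (1.62, SE 0.23, limma adjusted p = 0.000709). Its paralog Capza2 was the member with the highest mean over the 9 libraries, at 214, 125 and 140.2 in fetal, 203, 165 and 185 in TAC and 192, 206 and 155 in sham. Those groups overlapped, and the difference for fetal minus sham was -0.23 with a 95% interval from -0.72 to 0.26.

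Tmod2, a tropomodulin best known from neurons, caps pointed ends. It was at 6.40, 4.73 and 6.52 in fetal, 6.97, 4.64 and 6.39 in TAC and 8.47, 10.5 and 10.2 in sham, so that the sham libraries were above both other groups. For fetal minus sham the change was -0.64 (SE 0.21, limma adjusted p = 0.0332). That call was lost without any 1 fetal library (adjusted p 0.0555, 0.106 and 0.0558 without replicates 1, 2 and 3), without sham replicate 2 (0.0951) or 3 (0.084), and with libraries scaled to equal totals (0.175). Between 41.0% and 100% of its level lay in assembled transcripts in 8 libraries, and TAC 2 listed the reference transcript alone.

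Myom3, a myomesin of the M band, had the largest log2 change of the tested members. It stood at 0.591, 0.456 and 0.687 in fetal, 29.5, 44.9 and 22.0 in TAC and 30.6, 22.6 and 52.8 in sham libraries. The fetal mean was 61.1-fold below sham (log2 change -4.44, SE 0.34, limma adjusted p = 2.38e-05) and 55.6-fold below TAC (-4.34, SE 0.34, limma adjusted p = 2.73e-05). The transcript listed for the locus differed as well, on 60, 35 and 63 implied fragments in fetal libraries. Whether so few fragments let the assembly build a transcript other than the reference was not tested. In the 3 fetal libraries all of it was assigned to the reference transcript ENSRNOT00000044969, of 4318 nt over 47.5 kb (rn4 chromosome 5, 154544049 to 154591541). All 6 adult libraries listed that transcript at 0 and placed the whole level in an assembled one of 2250 to 2367 nt, which began 28.5 to 28.6 kb into the locus and reached its end. The share of the reference transcript was therefore 100% in every fetal library, 0% in every TAC library and 0% in every sham library. FPKM divides fragments by transcript length, so the folds and log2 changes above set a 4318 nt transcript against ones of 2250 to 2367 nt. The longer fetal transcript lowers the fetal value for the same number of fragments, and the part of length in the change was not tested. The share itself was compared in percentage points by limma, a fit chosen after the data were seen, over 11178 reference transcripts of loci above 0 in every library. Myom3 differed by 100 points, with an SE of 12.5, in both comparisons, at a limma adjusted p of 0.00687 for fetal minus sham and 0.00638 for fetal minus TAC. Among 17 member transcripts 2 were called for fetal minus sham and 1 for fetal minus TAC, where 0.617% and 0.823% of all transcripts were.

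The shares did not vary within groups, so the SE rests on the spread of other transcripts. With the replicate number as a block the adjusted p was 0.0435 for fetal minus sham and 0.0404 for fetal minus TAC, and without any 1 library it stayed between 0.00435 and 0.0221. The log ratio of the transcript to the rest of the locus, fitted first, was also called (5.75 for fetal minus sham, 5.65 for fetal minus TAC), but it carries the level of the locus and is no separate measure of the share. The fetal share rested on 60, 35 and 63 implied fragments, the adult ones on 378 to 1994.1. The part of fragment number in the difference between transcripts was not tested.

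**Figure D2:**
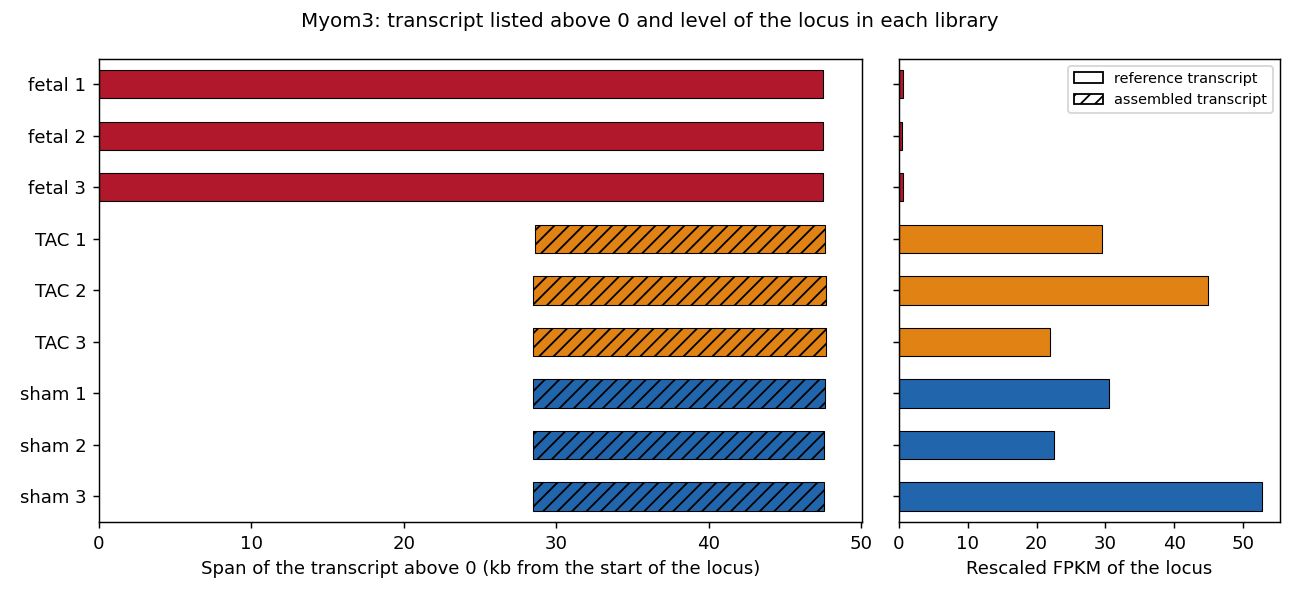
Left, span of the Myom3 transcript listed above 0 in each library, in kb from the start of the locus (plain bars, reference transcript; hatched bars, assembled transcript). Right, level of the locus in rescaled FPKM, below 1 in the 3 fetal libraries and between 22.0 and 52.8 in the 6 adult ones.

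Of the 5 tested Z-disc members 4 were lower in fetal libraries than in TAC, 3 of them also than in sham, and 1 was higher than in both. Lower calls made up 23% of all loci against TAC and 23.2% against sham. Myot is among the lower members and passed the filter through its adult libraries alone. Pdlim3, also known as ALP, binds alpha-actinin through its PDZ domain. It was at 205, 178 and 165 in fetal, 68.9, 84.8 and 95 in TAC and 72.7, 64.1 and 88.2 in sham libraries. All fetal libraries were above all adult ones, by 2.43-fold over sham (log2 change 1.28, SE 0.17, limma adjusted p = 0.000502) and 2.20-fold over TAC (1.14, SE 0.17, limma adjusted p = 0.000977). Pdlim2, a relative that also acts as an adaptor in ubiquitination, went the other way, with 2.84, 2.14 and 3.0 in fetal, 8.82, 11.2 and 8.86 in TAC and 15.6, 7.59 and 9.95 in sham. Its fetal mean was 4.15-fold below sham (-1.67, SE 0.26, limma adjusted p = 0.00108) and 3.63-fold below TAC (-1.54, SE 0.26, limma adjusted p = 0.00171). Fetal and TAC libraries listed only the reference transcript of 1528 nt. Sham libraries also held assembled ones of 884, 1819 and 731 nt, with 3.25, 3.35 and 2.74 left in the reference transcript. The fold against sham thus sets unlike transcript lengths against each other, and the part of length in it was not tested.

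Pdlim1, the third relative, also known as CLP36, differed from both in its pattern. It stood at 86.7, 69.8 and 95.5 in fetal, 122, 112 and 163 in TAC and 88.4, 99.2 and 94.1 in sham. Only the TAC libraries were set apart, above the other groups. The change was -0.64 (SE 0.17, limma adjusted p = 0.0163) for fetal minus TAC, and -0.17 with a 95% interval from -0.57 to 0.23 for fetal minus sham. The call against TAC was lost without fetal replicate 2 (adjusted p = 0.0563), without TAC replicate 3 (0.0512) and with equal library totals (0.243).

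Myot (myotilin), which binds alpha-actinin and crosslinks actin, was near 0 in fetal libraries at 0.0509, 0 and 0, beside 3.20, 2.28 and 2.66 in TAC and 5.29, 1.63 and 2.42 in sham. The fetal values rest on 2, 0 and 0 implied fragments, the adult ones on 19 to 62. The change was -1.92 (SE 0.32, limma adjusted p = 0.00155) for fetal minus sham and -1.86 (SE 0.32, limma adjusted p = 0.00184) for fetal minus TAC. Myoz1, a myozenin that ties alpha-actinin to calcineurin and is known from fast skeletal fibres, was also weak, at 0.328, 1.01 and 0.904 in fetal, 2.33, 4.37 and 3.12 in TAC and 4.87, 5.07 and 1.98 in sham. The change was -1.46 (SE 0.34, limma adjusted p = 0.00847) for fetal minus sham and -1.28 (SE 0.34, limma adjusted p = 0.0153) for fetal minus TAC. Against TAC it was lost without fetal replicate 1 (0.0576) or TAC replicate 2 (0.0527), and from replicates 2 and 3 alone it was lost in both comparisons (0.0768 against sham, 0.0555 against TAC).

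Among the LIM-only proteins, adaptors with no catalytic domain, Csrp2 had the largest change upwards of the tested members. This CRP-family protein, known from smooth muscle, was at 165, 108 and 87.2 in fetal, 11.7, 14.7 and 15.2 in TAC and 17.2, 13.5 and 12.1 in sham libraries. The lowest fetal library was above the highest adult one, with an 8.41-fold higher fetal mean than sham (log2 change 2.95, SE 0.25, limma adjusted p = 3.56e-05) and 8.67-fold than TAC (2.99, SE 0.25, limma adjusted p = 3.51e-05). Csrp1, its more widely expressed relative, held 205, 212 and 199.9 in fetal, 145, 134 and 185 in TAC and 173, 122 and 138 in sham. The step was small, 1.42-fold over sham (0.52, SE 0.17, limma adjusted p = 0.0355), and missed the threshold against TAC (0.42, limma adjusted p = 0.0745). It was lost without any 1 fetal library (0.0794, 0.0888 and 0.0754 without replicates 1, 2 and 3) and without sham replicate 2 (0.114) or 3 (0.0854).

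Fhl3, of the FHL family of actin-binding LIM adaptors, was even among fetal and among sham libraries, at 14.0, 13.4 and 14.9 in fetal, 31.9, 48.1 and 33.0 in TAC and 39.8, 40.6 and 39.5 in sham. The fetal mean was 2.84-fold below sham (-1.44, SE 0.17, limma adjusted p = 0.000223) and 2.67-fold below TAC (-1.33, SE 0.17, limma adjusted p = 0.000346). Fhl4, of the same family, ran from 1.51 to 3.33 over the 9 libraries with overlapping groups, and its difference for fetal minus sham was -0.07 with a 95% interval from -0.71 to 0.57.

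Vcl (vinculin), which couples actin to integrin and cadherin adhesions, was at 158, 154 and 206 in fetal, 100.3, 88.7 and 79.1 in TAC and 101, 93.1 and 100.2 in sham libraries. All fetal libraries were above all adult ones. The fetal mean was 1.76-fold that of sham (0.80, SE 0.15, limma adjusted p = 0.00288) and 1.93-fold that of TAC (0.94, SE 0.15, limma adjusted p = 0.00129).

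The members in the list by name alone gave 1 change. Mylip was at 7.77, 7.73 and 6.23 in fetal, 9.93, 16.4 and 21.2 in TAC and 16.3, 11.4 and 12.5 in sham, with all fetal libraries below all adult ones. The change was -0.79 (SE 0.27, limma adjusted p = 0.041) for fetal minus sham and -0.98 (SE 0.27, limma adjusted p = 0.0178) for fetal minus TAC. Against sham it was lost with the replicate number as a block (0.0626), with equal library totals (0.121), and without any 1 library except TAC replicates 1 and 3 (0.0549 to 0.122); against TAC it was lost with equal library totals (0.0728), without fetal replicate 3 (0.0614) and without TAC replicate 2 (0.0532) or 3 (0.0566). Csrp2bp was at 11, 22.2 and 24.5 in fetal, 5.86, 17.1 and 16.6 in TAC and 18.1, 18.7 and 19.6 in sham, with no call in any comparison.

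Much of the level of several members lay in transcripts that the authors' assembly added to the reference, and leaving those transcripts out changed many calls. From reference transcripts alone 6 members were called for fetal minus sham (Csrp1, Csrp2, Fhl3, Myoz1, Pdlim3 and Tnni3k) and 5 for fetal minus TAC (Csrp1, Csrp2, Pdlim2, Pdlim3 and Tnni3k). Calls over all loci became fewer as well, with the counts given under processing below. Lmod3, whose adult level was wholly in assembled transcripts in TAC 2 and 3 and sham 1 and 2, then gave -0.25 for fetal minus sham (limma adjusted p = 0.954), and Myom3 fell below the filter. Vcl gave 0.14 (limma adjusted p = 0.778), Capza1 1.07 (0.307), Pdlim2 -0.17 (0.777) and Myot -1.12 (0.283) in that comparison, and the calls of Mylpf (0.0632), Mylip (0.349) and Tmod2 (0.7) were lost too. Pdlim2 had 100% in its reference transcript in every fetal and every TAC library and 20.9%, 44.1% and 27.6% in sham. The difference in share was 69.1 points for fetal minus sham (limma adjusted p = 0.0265, and 0.104 with the replicate number as a block). For TAC minus sham it was 69.1 points as well (limma adjusted p = 0.0813, and 0.268 with the block). Without sham replicate 2 the limma adjusted p for TAC minus sham was 0.0423, and without any other 1 library it was 0.0518 to 0.116. Pdlim3 placed 100% in ENSRNOT00000017568 in all fetal libraries, 100%, 75.3% and 54.6% in TAC and 68.0%, 72.4% and 64.8% in sham, which missed the threshold (limma adjusted p = 0.48 for fetal minus sham). No member share was called for TAC minus sham, where 0.116% of all shares tested were.

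**Figure D3:**
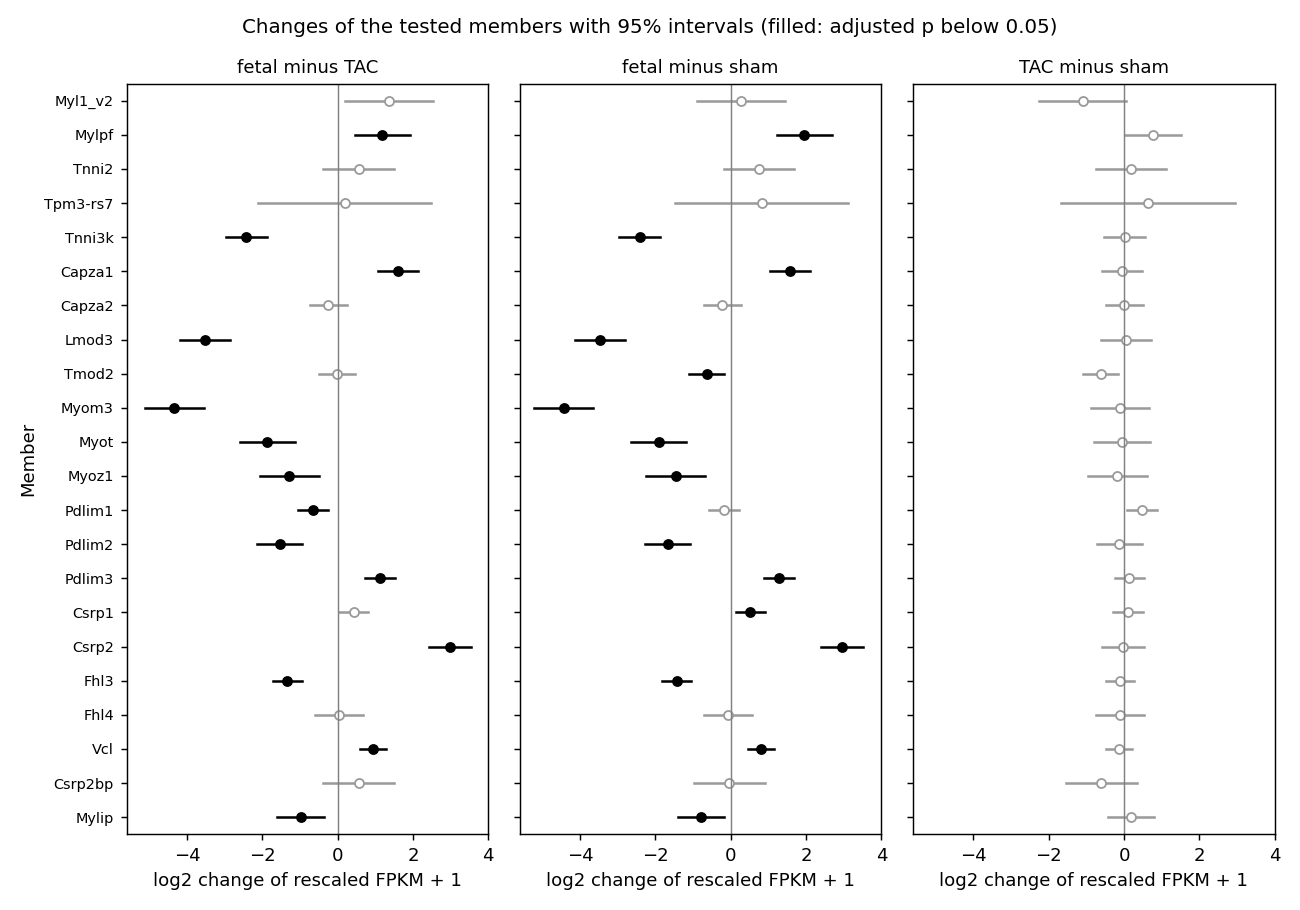
Log2 change of rescaled FPKM + 1 with its 95% interval for the 22 tested members in fetal minus TAC, fetal minus sham and TAC minus sham, grouped by role from top to bottom; filled points have an adjusted p below 0.05. The changes run from -4.44 (Myom3) to 2.95 (Csrp2) in fetal minus sham, and no point is filled in TAC minus sham.

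The comparison of TAC with sham asks whether pressure overload moves these genes, and none of the 22 tested members was called. Over all loci 3 of 14118 (0.0212%) were called in limma and 607 (4.3%) had an unadjusted p below 0.05, as did 3 members (Mylpf, Pdlim1 and Tmod2). The median log2 change of the members was -0.04, beside -0.01 over all loci. For the members called in both fetal comparisons other than Mylpf the 95% intervals of TAC minus sham were -0.60 to 0.53 for Csrp2, -0.62 to 0.70 for Lmod3, -0.88 to 0.67 for Myom3, -0.53 to 0.56 for Tnni3k, -0.58 to 0.49 for Capza1, -0.25 to 0.54 for Pdlim3, -0.49 to 0.20 for Vcl, -0.79 to 0.68 for Myot, -0.96 to 0.61 for Myoz1, -0.73 to 0.46 for Pdlim2, -0.49 to 0.28 for Fhl3 and -0.44 to 0.80 for Mylip. These intervals are not adjusted for the number of loci. The size of difference that could be detected at this depth and number of libraries was not tested.

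The 3 TAC libraries lay all above or all below the 3 sham libraries for 4 members, where 8.83% of all loci tested did so. Pdlim1 was 1.41-fold higher in TAC (0.47, 95% interval 0.07 to 0.87, unadjusted p = 0.0255, limma adjusted p = 1), with the lowest TAC library at 112 and the highest sham library at 99.2. Mylpf differed by 0.77 (0.04 to 1.5, unadjusted p = 0.0416, limma adjusted p = 1) on the few fragments given above. Tmod2 was 1.62-fold lower in TAC (-0.62, -1.10 to -0.15, unadjusted p = 0.0158, limma adjusted p = 1), and with reference transcripts only the sign turned, at 0.61. Csrp2bp differed by -0.61 (-1.55 to 0.33, limma adjusted p = 1), and by -0.15 without TAC replicate 1. Its level in TAC 1 (5.86) lay wholly in the extended reference transcript of 2793 nt. TAC 2 and 3 held 14.2 and 10.1 in assembled transcripts of 880 and 872 nt. Sham libraries held 14.2, 14.1 and 15.2 in assembled ones of 831, 745 and 625 nt. The part of these lengths in the Csrp2bp difference was not tested. TAC replicate 1 was the highest TAC library for the atrial markers Myl7, Sln, Nppa and Bmp10, and the lowest for Gja5, Kcna5 and Dkk3. Over the 7 atrial markers found by symbol the summed level ran from 527.2 to 2982 in TAC and from 241 to 707 in sham libraries, and Myl7 alone was at 1052, 145 and 104 in TAC and 73.9, 79.3 and 1.20 in sham. Without TAC replicate 1 the differences between TAC and sham were 0.52 for Pdlim1, 1.02 for Mylpf and -0.72 for Tmod2.

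**Figure D4:**
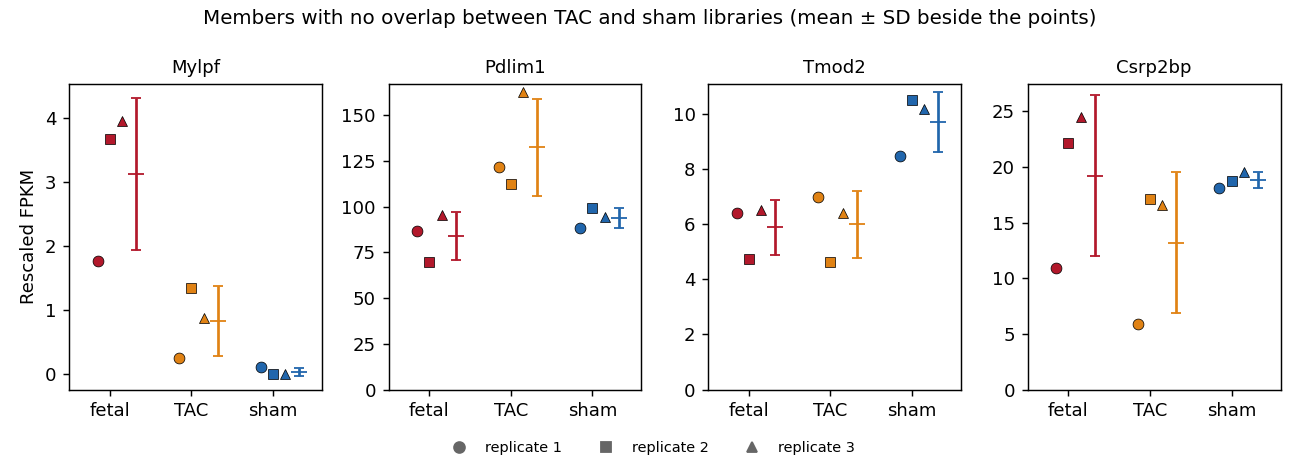
Rescaled FPKM of Mylpf, Pdlim1, Tmod2 and Csrp2bp in the fetal, TAC and sham libraries, by replicate, with the group mean ± SD beside the points. TAC and sham libraries do not overlap for any of the 4, and none passed the adjusted threshold.

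Of 69 other genes of the sarcomere, costamere, intercalated disc and their chaperones, listed by name, 25 had a locus with that symbol and 23 were tested. Genes without a matching symbol were not looked up, here and in the marker lists, and may be present under a transcript name. For fetal minus sham 5 were higher and 9 lower with a median of 0.34, for fetal minus TAC 4 were higher and 10 lower with a median of 0.06, and none changed for TAC minus sham in limma (1 at an unadjusted p below 0.05). The widest falls in fetal libraries were in Lims2, an adaptor of the integrin complex also called PINCH2, and Ankrd23, a titin-binding ankyrin repeat protein. Lims2 averaged 6.76 ± 3.10 in fetal, 282 ± 77.4 in TAC and 318 ± 25.0 in sham libraries (log2 change -5.45 for fetal minus sham, limma adjusted p = 7.81e-06). Ankrd23 changed by -4.12 (2.22e-05), Lrrc10, a cardiac Z-disc protein, by -2.48 (4.43e-05), Bag3, a co-chaperone of the Z disc, by -2.35 (4.61e-05) and Klhl31, a kelch protein of muscle, by -1.70 (2.87e-05). Higher in fetal libraries were Actg2, the enteric smooth muscle actin, by 1.92 (limma adjusted p = 0.0263), Trim55, a titin-binding ubiquitin ligase, by 1.68 (0.000937), Ilk, the integrin-linked kinase, by 1.14 (0.00136), the actin crosslinker Flnc by 0.75 (0.00611) and N-cadherin Cdh2 by 0.69 (0.0183). Ilk and Lims2, partners in 1 complex at integrin adhesions, went in opposite directions.

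Markers of the cells in the tissue moved with stage. Of 4 cardiomyocyte markers found by symbol (Actc1, Mb, Cox8b and Hspb7), 2 (Mb and Cox8b) were lower in fetal than in sham libraries and none was near 0 in any library. Their summed level ran from 15627 to 138699 in fetal, 48122 to 53967 in TAC and 46067 to 57716 in sham, and the highest fetal value came from Actc1 in replicate 2. All 9 cell cycle markers were higher in fetal, with summed levels of 692 to 907 in fetal, 68.4 to 74.7 in TAC and 55.8 to 74.9 in sham. Of 8 fibroblast markers 6 were lower and 1 (Postn) higher in fetal than in sham, with summed levels of 401 to 609 in fetal, 1561 to 1670.3 in TAC and 1100.1 to 1596 in sham. Of 7 macrophage markers 6 were lower in fetal than in sham (59.7 to 68.8 in fetal, 296 to 489 in TAC, 277 to 511 in sham), and of 5 endothelial markers 3 were lower (126 to 224 in fetal, 249 to 359 in TAC, 217 to 332 in sham). The share of these cell types in the members' changes was not tested.

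Csrp2 is best known from smooth muscle, and Mylpf and Tnni2 from skeletal muscle. Of 5 smooth muscle markers Cnn1 was higher in fetal, at 85.1, 75.4 and 91.0 in fetal, 5.85, 1.43 and 5.72 in TAC and 12.7, 1.20 and 1.32 in sham, while Des and Mustn1 were lower and Tagln and Kcnmb1 were not called. The summed level ran from 699.6 to 1088 in fetal, 1704 to 2270.1 in TAC and 1987 to 2463 in sham, and Des, which cardiomyocytes also express, made up most of it. Without Des the sums were 155 to 214 in fetal, 70.8 to 132 in TAC and 74.4 to 211 in sham. Of 17 skeletal muscle markers 9 had a locus with that symbol and 4 were tested, with Mylpf and Casq1 higher in fetal than in sham and Tnni2 and Mybpc2 not called. Their summed level over the 9 ran from 81.5 to 92.0 in fetal, 33.6 to 80.4 in TAC and 19.9 to 48.9 in sham. Of the 9, 4 are members themselves (Mylpf, Tnni2, Tnnc2 and Actn3), and the other 5 summed to 74.4 to 88.4 in fetal, 31.7 to 80.1 in TAC and 19.3 to 48.0 in sham, nearly all of it Casq1. Pax7 was at 0 in every library, Myod1 was at most 0.0264 (fetal 1), and Myog was at 0.797, 0.421 and 0.524 in fetal libraries and at 0 in every adult one. Of 6 erythroid markers 3 were higher in fetal than in sham, with summed levels of 17022 to 27204 in fetal, 4958 to 10073 in TAC and 5012 to 12536 in sham. In the atrial list 4 of 7 were higher in fetal than in sham, with summed levels of 1354 to 2649.8 in fetal libraries. The part of these tissues in the members' levels was not tested.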

How the data were processed

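Total RNA of rat heart ventricle was sequenced on an Illumina GAIIx, in 3 fetal, 3 TAC and 3 sham libraries, made with a kit that does not mark the strand. Groups and replicate numbers were read from the labels. Per the submitters' processing notes, reads were handled with TopHat 1.3.1, Cufflinks 1.0.3 and Cuffdiff, on genome build rn4. The authors deposited FPKM values and their confidence bounds for genes and isoforms, each library assembled separately and carrying its own constant factor. Isoform lengths were deposited as well, and locus starts were counted from 0 in the deposited files and are given here from 1.

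Loci were formed from reference transcripts (39492) that share a gene in at least 5 libraries, and assembled transcripts were added to the locus of their gene. Isoform values of each gene summed to the deposited gene value within a tolerance of 0.001. FPKM were scaled by the median of ratios over 13143 loci above 0 in every library, then to a mean library total of 1e6. Loci at 1 or more in at least 3 libraries were fitted in limma 3.58.1 (R 4.3.3; eBayes with a trend) on log2(value + 1), all 9 libraries together. The share of a reference transcript was fitted as log2((transcript + 1)/(rest of the locus + 1)), assembled transcripts included in the rest, where the locus averaged 3 or more and the share between 5% and 95%. That ratio also moves with the level of the locus, so the share was fitted again in percentage points, a choice made after the data were seen. The scripts were tested on simulated data.

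Fragments behind a value were derived from the deposited confidence bounds, and cover counting error only. They are estimates and no counts of reads. Members and gene lists were chosen with earlier results of these data known. Values in every library are given for each member past the threshold in any comparison, for members with no overlap between TAC and sham and a change of at least 0.5, and for the 5 highest; of the other sarcomere genes the 5 largest changes in each direction for fetal minus sham are named.

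The first principal component (56.9% of variance) separated fetal from adult libraries and the second (16.9%) replicate 1 of each group from the others, whose shortest assembled isoform was 63 nt, against 43 nt in replicate 1. Once group means were taken off, same-number libraries correlated in every pair of groups, for fetal with TAC, fetal with sham and TAC with sham at 0.47, 0.46 and 0.51 for number 1, 0.23, 0.22 and 0.26 for number 2 and 0.18, 0.16 and 0.14 for number 3. Libraries 2 and 3 of different groups correlated about as much (0.24 for fetal 2 with TAC 3, 0.28 for TAC 3 with sham 2), so the data set replicate 1 apart and do not tell number 2 from number 3. A fit with the replicate number as a block was run, the numbers being a hint from the data and not from a label. Alternatives were other scaling, pseudocount and filters, the block, leaving out each library, replicates 2 and 3 alone, reference transcripts only, no trend, and a fit of the compared libraries only.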

Additional observations from a re-analysis of the deposited data

How the results depend on the processing

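Over 35 results of single members, 630 alternative fits gave 561 results on the same side of the threshold and in the same direction, 68 that no longer passed and 1 reversal, Tmod2 for TAC minus sham at 0.61 with reference transcripts only. With reference transcripts only, 2108 loci and 5 members were called for fetal minus TAC, 2016 loci and 6 members for fetal minus sham, and 36 loci for TAC minus sham. The main fit called 6459 loci for fetal minus TAC and 6455 for fetal minus sham. Myom3 had no value with reference transcripts only, as its adult level lay in assembled transcripts. Replicates 2 and 3 alone gave 10 loci for TAC minus sham, and no log ratio of a member transcript was called (0) in either fetal comparison, with the replicate block (0) or from those replicates; in percentage points 2 member shares were called for fetal minus sham. Leaving out 1 library at a time gave 4968 to 6368 loci and 12 to 15 members for fetal minus TAC, 4982 to 6652 loci and 12 to 15 members for fetal minus sham, 3 to 6 loci and 0 to 0 members for TAC minus sham, 0 to 2 member shares in each fetal comparison and 0 to 1 for TAC minus sham. For TAC minus sham the count was 6 without fetal replicate 1 and 5 without sham replicate 2. The replicate block gave 14 members in each fetal comparison and changed no call of a member's level other than Mylip for fetal minus sham. Of the members called, a filter of 5 removed Mylpf, Myot and Myoz1. Scaling to equal library totals moved the median change of all loci from 0.04 to 0.19 for fetal minus sham and from 0.03 to 0.24 for fetal minus TAC, and kept the direction of every member called. Depth was not tested against the number of calls.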

Other observations

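Acta1, the skeletal alpha-actin, and Actc1, the cardiac alpha-actin, were not members but are the thin filament on which the members act. Acta1 stood at 3059, 10102 and 3073 in fetal, 2309.8, 1020.01 and 1864 in TAC and 2557, 927 and 1574 in sham libraries, and Actc1 at 14011, 135470 and 18893 in fetal, 27132, 20959 and 22942 in TAC and 21117, 20987 and 24167 in sham. Fetal replicate 2 was the highest library for both, by a wide margin in Actc1. Neither was called for fetal minus sham (limma adjusted p = 0.0557 for Acta1 and 0.633 for Actc1).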
